A study of Rattus norvegicus with 11 samples.

Results

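The genes described here are the axon guidance ligands and receptors of the rat dentate gyrus, measured late after an experimental brain injury. They were chosen by name: every probe set that the platform annotation ties to exactly 1 gene symbol was kept if that symbol belonged to the semaphorin (Sema3 to Sema7), plexin, neuropilin, ephrin, Eph receptor, Slit, Robo, netrin, netrin-G or Unc5 families or was Dcc or Draxin. Where a gene had several such probe sets, the brightest over all arrays stood for it. The rule gave 71 genes, all 71 of which passed the filter on low signal, among 17905 tested probe sets for 16572 genes. There were 37 ligands and 32 receptors, plus Unc50 and Unc5cl, which match the Unc5 name pattern but are not netrin receptors. The rule itself used gene names, and measured signal only to pick the brightest probe set of a gene. The families were chosen with earlier results of these data known.

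The arrays (Affymetrix Rat Gene 1.1 ST) measured total RNA from the left dentate gyrus with its hilus, 1 array per rat, in male Sprague-Dawley rats. The TBI group held 6 rats killed 90 days after lateral fluid-percussion injury (FPI), in which a pulse of fluid strikes the intact dura through an opening in the left side of the skull. The control group held 5 sham-operated rats of the same time point, which had the same pentobarbital and chloral hydrate anesthesia and the same craniectomy without the impact. The tissue came from the injured side only, and all values are log2 signals on which 1 unit is a doubling. Levels of different genes cannot be compared on these arrays, because each probe set has its own brightness.

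Axon guidance molecules steer growing axons and dendrites by attraction or repulsion. Secreted class 3 semaphorins act through neuropilins and A-type plexins, while membrane-bound class 4 semaphorins act mainly through B-type plexins. Slits repel axons through Robo receptors, netrins attract through Dcc and repel through Unc5 receptors, and ephrins signal to Eph receptor tyrosine kinases at cell contacts in both directions. In the adult dentate gyrus these systems are known from work on mossy fiber targeting, spine and synapse shape, glial contact and the vessel wall.

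Of the 5 guidance genes with the lowest p-values, 3 were B-type plexins and 1 was Robo3, so the stretches that precede the start sites of the 3 B-type plexins and of Robo3 are shown, each 250 bases long, from RefSeq on build GRCr8 and written 5′ to 3′ on the strand of the gene. Capitals mark GC boxes, the letters GGGCGG on either strand.
Plxnb1, chr8:118622911-118623160, plus strand: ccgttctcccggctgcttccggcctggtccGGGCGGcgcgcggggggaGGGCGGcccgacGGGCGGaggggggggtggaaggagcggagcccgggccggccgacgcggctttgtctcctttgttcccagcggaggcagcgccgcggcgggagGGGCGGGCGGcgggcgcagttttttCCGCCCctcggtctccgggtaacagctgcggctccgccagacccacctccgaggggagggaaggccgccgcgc
Plxnb2, chr7:122137949-122138198, minus strand: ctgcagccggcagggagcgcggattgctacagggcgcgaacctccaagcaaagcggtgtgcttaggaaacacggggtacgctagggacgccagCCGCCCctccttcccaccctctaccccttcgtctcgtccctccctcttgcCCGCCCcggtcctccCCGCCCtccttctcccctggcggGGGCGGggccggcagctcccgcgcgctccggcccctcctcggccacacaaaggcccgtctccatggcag
Plxnb3, chrX:156646624-156646873, plus strand: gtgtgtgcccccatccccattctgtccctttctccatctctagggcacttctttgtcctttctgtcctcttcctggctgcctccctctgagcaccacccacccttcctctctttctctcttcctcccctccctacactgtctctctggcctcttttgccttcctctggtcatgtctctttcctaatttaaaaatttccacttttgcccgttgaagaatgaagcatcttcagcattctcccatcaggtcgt
Robo3, chr8:45340223-45340472, minus strand: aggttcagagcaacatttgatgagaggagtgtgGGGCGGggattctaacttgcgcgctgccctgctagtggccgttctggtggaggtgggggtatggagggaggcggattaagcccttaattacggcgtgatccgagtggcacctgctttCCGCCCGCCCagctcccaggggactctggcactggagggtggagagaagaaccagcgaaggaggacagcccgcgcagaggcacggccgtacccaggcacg
The Plxnb1 stretch held 6 GC boxes, 36 CpG dinucleotides and 78% G and C. In Plxnb2 there were 4 GC boxes, 24 CpG dinucleotides and 71.6% G and C. The Plxnb3 stretch had no GC box, 2 CpG dinucleotides and 50.8% G and C, so the B-type plexins did not share this kind of upstream sequence. Robo3 had 3 GC boxes, of which a pair overlap, 16 CpG dinucleotides and 62.8% G and C. Of the 71 genes, 56 had an entry in the RefSeq promoter table, and Sema3b and Sema3f did not. A GC box lay in 31 of the 56 (55.4%), against 30.5% of all 33469 promoters of this length. The units differ, here and for the other motifs: a guidance gene counts if any of its entries has a match. The background counts single promoters, whether or not their genes were tested on the array. The median G and C content was 61.4% over the entries of the guidance genes and 51.2% in all promoters. On both strands, the letters TGGGAA, the core of the RBPJ site of Notch signaling, were in 12 of 56 (21.4%, against 22.1% of all), the E box CACGTG was in 4 (7.14%, against 5.59%), and the TATA box TATAAA was in 0 of 56 (against 12.9%). None of these motifs contains another, and a match is only a description of the sequence.

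The arrays correlated at 0.984 or more with each other and their medians lay between 5.26 and 5.35. Within groups, 1 component held 63.9% of the variance over all tested probe sets and set TBI 1 (score 0.49), TBI 3 (0.42) and control 2 (0.45) apart from the other 8 rats (-0.34 to 0.06). Genes described in full below are therefore also given without those 3 rats, which leaves 4 TBI and 4 control rats. As a check of the tissue label, Prox1, the transcription factor that defines granule cells, averaged 9.31 ± 0.07 in TBI rats and 9.27 ± 0.11 in controls (SD, n = 6 and 5). This is 1 gene and does not show how evenly the tissue was cut. The mean level of 10 CA1 to CA3 pyramidal markers was 5.40 to 5.78 in TBI rats and 5.40 to 5.74 in controls. It was highest in TBI 4 (5.78) and control 1 (5.74), and whether dissections differed was not tested. Probe sets called at an adjusted p under 0.05 by limma numbered 27 over the array.

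No guidance gene passed an adjusted p of 0.05 in limma (Benjamini-Hochberg over the 17905 probe sets), against 0.151% of all tested probe sets. Before adjustment, 8 of the 71 genes were higher in TBI rats at p under 0.05 (Plxnb1, Plxnb2, Plxnb3, Sema3b, Sema3f, Draxin, Epha8 and Ntn4), against a background of 4.96% of all probe sets. On the same terms 3 were lower (Robo3, Robo2 and Sema4f), against a background of 1.87%. The one-way analysis of variance of the study's methods gave 7 higher and 2 lower, and likewise 0 after adjustment. With it 904 of all probe sets were higher and 330 lower before adjustment. By limma the shares were 15.5% of the guidance genes and 6.82% of all probe sets for both directions together. The values of the groups did not overlap for 2 genes, Plxnb3 and Sema3b, where 1.04% of all probe sets had no overlap. The median difference of the 71 genes was 0.01 on the log2 scale, and that of all probe sets was also 0.01, with 39 guidance genes above 0 and 32 below. Of all tested probe sets 57.2% were above 0, beside 54.9% of the guidance genes. Among ligands 23 of 37 were above 0 (4 higher and 1 lower before adjustment), and among receptors 14 of 32 (4 higher and 2 lower). Rescaling the arrays changed this split, which became 5 higher and 6 lower with arrays centred on their medians, and 4 higher and 4 lower after a second quantile normalization. The split of all 17905 probe sets moved as well, to 502 higher and 678 lower and to 646 higher and 501 lower, against 888 higher and 334 lower on the deposited scale. Leaving out single rats moved the higher count to 12 without TBI 1, to 4 without TBI 6 and to 5 without control 2. Over all probe sets the higher count was then 1521, 762 and 768. The lower count moved to 6 without TBI 3, and to 1 without TBI 5 or without control 5. Over all probe sets the lower count was then 669, 245 and 237, so these shifts ran in the same direction over the whole array. In tissue of mixed cells, fewer cells of a type and less RNA per cell cannot be told apart. Nothing in the labels names a shared litter or batch of these rats.

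**Figure D1:**
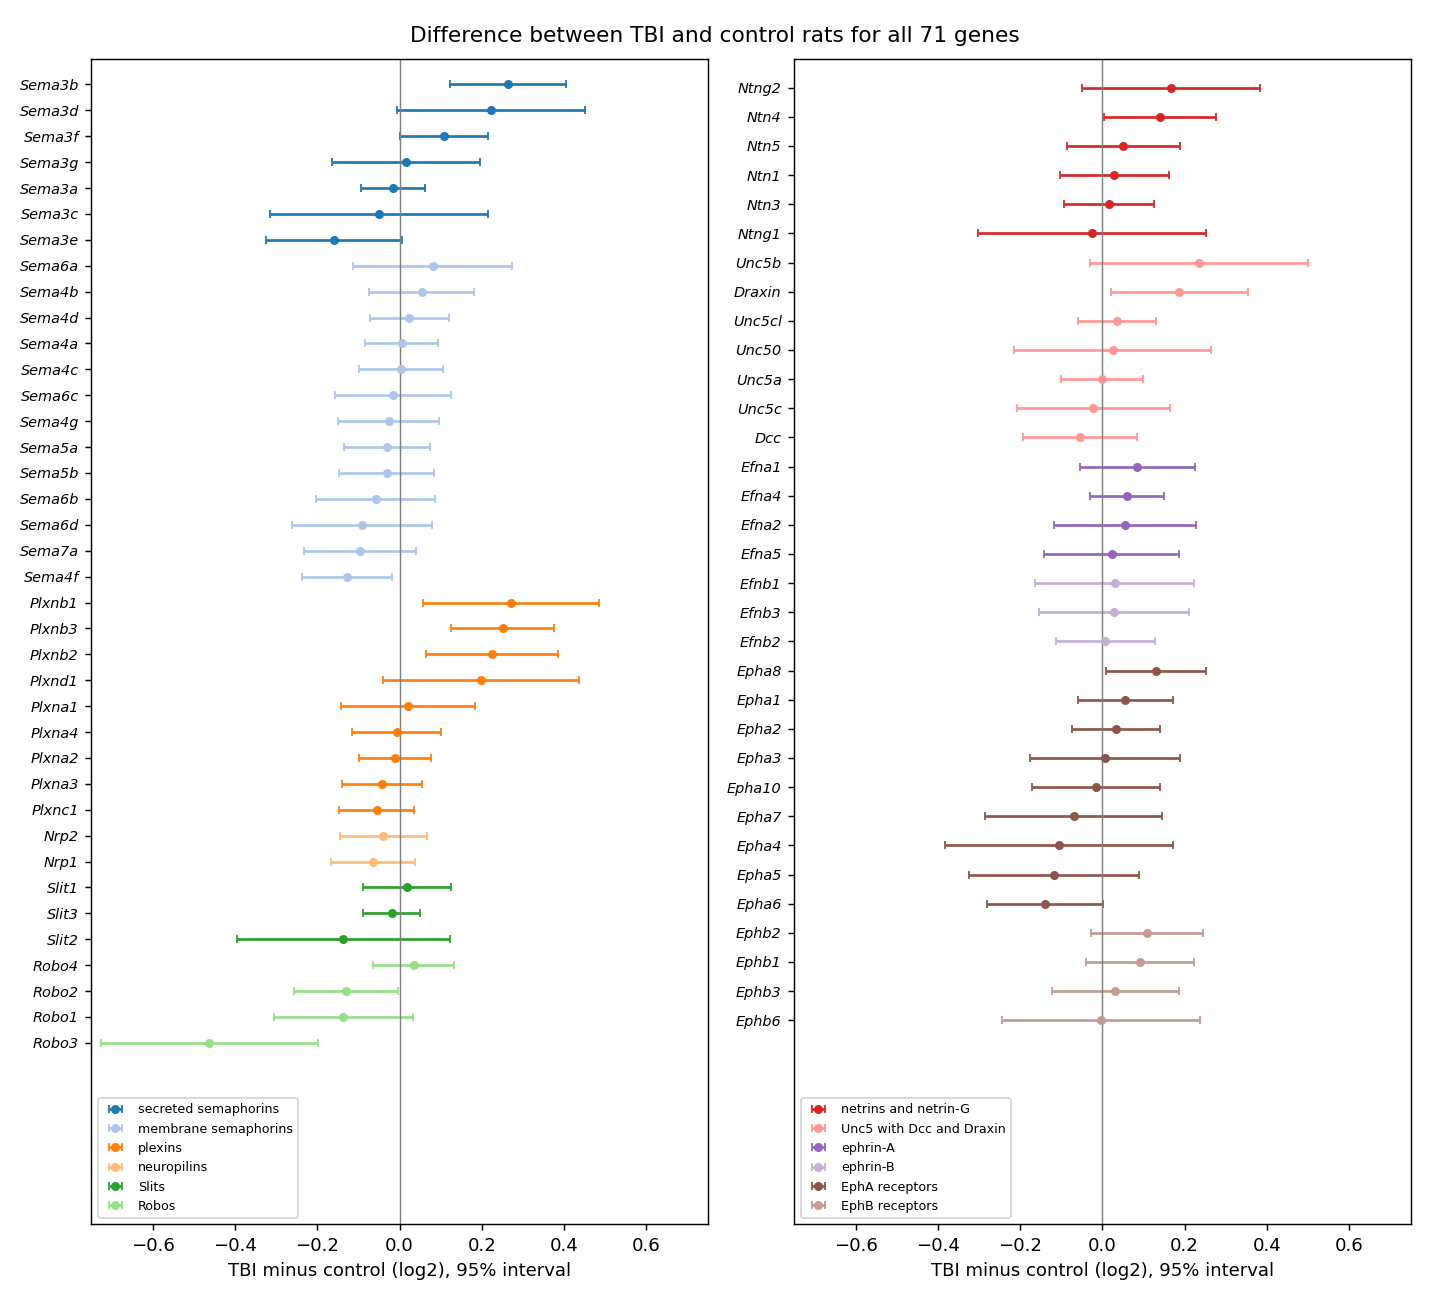
Difference between 6 TBI and 5 control rats in log2 signal for each of the 71 genes, grouped by family, with the 95% interval of the limma fit (not adjusted for the number of genes). The 3 B-type plexins lie between 0.23 and 0.27, Robo1 to Robo3 between -0.46 and -0.13, and most other intervals cross 0.

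The 3 rats that stand apart were picked from these same values, and no label gives a reason to leave them out. The p-values of the fit without them, here and below, are therefore a description and not a valid test. In that fit 3 guidance genes had an adjusted p under 0.05: Plxnb1 and Plxnb3 were higher and Robo3 was lower in TBI rats. Of all probe sets 1.51% were called in that fit, 271 against 27 with all rats. Before adjustment 13 guidance genes were higher, against 9.76% of all probe sets, and 13 were lower, against 10.4%. The groups did not overlap for 14 of the 71 genes in that fit, against 2 with all rats. Among the 14 were Robo2, Epha5, Epha6, Sema3e and Efna2. Groups with fewer rats separate more easily, and the share of all probe sets without overlap is not given for that fit. A lack of overlap there, here and below, is therefore only a description. A further fit with all 11 rats weighted each array by a quality estimated from these same values, so it is not separate evidence. It gave 4 calls (Plxnb3 and Sema3b higher, Robo3 and Robo2 lower), against 1.73% of all probe sets. Whether these few genes crossed the threshold thus depended on these settings, and the direction of each was the same in all settings tried.

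The 3 B-type plexins were the only family of which every member was higher in TBI rats at an unadjusted p under 0.05. Plxnb3, the receptor for Sema5a that in mouse brain is expressed mainly by oligodendrocytes, had log2 signals of 6.53, 6.77, 6.58, 6.66, 6.78 and 6.62 in TBI rats and of 6.30, 6.33, 6.47, 6.40 and 6.52 in controls. All 6 TBI rats lay above all 5 controls, although the lowest TBI rat and the highest control were only 0.01 apart. The difference was 0.25 (SE 0.06, a 1.19-fold ratio), with an exact permutation p of 0.00433, the smallest that 462 splits allow, and a limma p of 0.000982 that became 0.183 after adjustment. Without the 3 rats it was 0.28 (SE 0.06, adjusted p = 0.0477 in limma). Plxnb3 had the lowest p of the guidance genes and ranked 95 of all probe sets.

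Plxnb2, a receptor for class 4 semaphorins in neural progenitors and microglia, had 7.72, 7.86, 7.73, 7.88, 7.73 and 7.87 in TBI rats and 7.75, 7.37, 7.70, 7.40 and 7.64 in controls. The TBI rats sat in a narrow band, and the spread lay in the controls, where control 2 and control 4 were low. The difference was 0.23 (SE 0.07, exact permutation p = 0.026, adjusted p = 0.485 in limma), and 0.21 (SE 0.07, adjusted p = 0.15) without the 3 rats. Plxnb1, the receptor for Sema4d, had 8.01, 8.39, 7.97, 8.37, 8.26 and 8.47 in TBI rats and 8.02, 7.79, 8.07, 7.89 and 8.11 in controls. The 4 higher TBI rats were all above every control, and TBI 1 and TBI 3 lay within the control range. The difference was 0.27 (SE 0.10, exact permutation p = 0.0476, adjusted p = 0.577 in limma). Without the 3 rats it was 0.35 (SE 0.06, adjusted p = 0.0298 in limma) and the groups did not overlap.

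The differences of the other 6 plexins ran from -0.06 for Plxnc1 to 0.20 for Plxnd1, with a median of -0.01, and none reached an unadjusted p of 0.05. The 4 A-type plexins, the signaling partners of neuropilins, stayed within -0.04 and 0.02. Plxnd1, the receptor for Sema3e in endothelial cells, was at 4.87, 5.18, 5.00, 5.38, 5.00 and 5.34 in TBI rats and 5.23, 4.79, 4.93, 4.73 and 4.97 in controls, and the groups overlapped (exact permutation p = 0.134). Plxnd1 differed by 0.26 (SE 0.11, adjusted p = 0.231 in limma) without the 3 rats, above the 0.21 of Plxnb2. The contrast between B-type and other plexins was not tested, since the families were compared with their results known. Both neuropilins, the ligand-binding coreceptors of class 3 semaphorins, had small negative differences, -0.07 for Nrp1 (exact permutation p = 0.182, and a difference of -0.04 without control 5) and -0.04 for Nrp2.

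**Figure D2:**
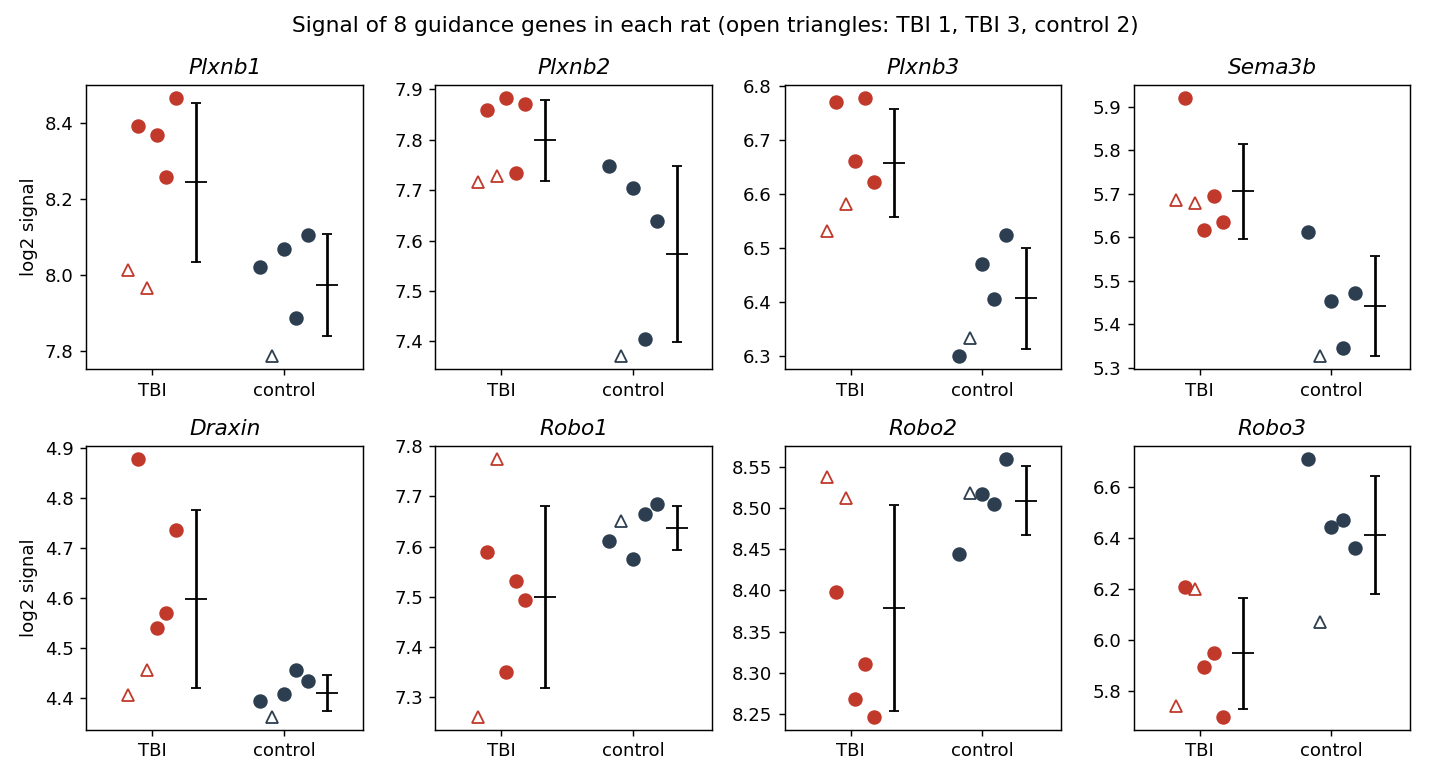
Log2 signal of 8 guidance genes in each rat, TBI left and control right, with the mean and SD of each group as a bar. Open triangles mark TBI 1, TBI 3 and control 2, which sit low in their group for Plxnb1 and at or near the top of it for Robo2.

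Semaphorins themselves were split by gene. Sema3b, a secreted repellent that acts through neuropilins, had 5.69, 5.92, 5.68, 5.62, 5.70 and 5.63 in TBI rats and 5.61, 5.33, 5.45, 5.35 and 5.47 in controls. The groups did not overlap, by 0.01 between the lowest TBI rat and control 1, and TBI 2 stood well above the rest. The difference was 0.26 (SE 0.06, a 1.20-fold ratio, exact permutation p = 0.00433, adjusted p = 0.235 in limma). Without the 3 rats it was 0.25 (SE 0.08, adjusted p = 0.121 in limma). Sema3f, which signals through neuropilin-2 and in the rodent hippocampus restrains spines and mossy fiber branches, had 5.19, 5.28, 5.39, 5.49, 5.32 and 5.38 in TBI rats and 5.26, 5.20, 5.25, 5.26 and 5.19 in controls. Of the TBI rats, 5 were above all controls and TBI 1 was at the bottom of both groups. The difference was 0.11 (SE 0.05, exact permutation p = 0.0433, adjusted p = 0.723 in limma), and 0.13 (SE 0.05, adjusted p = 0.192) without the 3 rats.

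The remaining 5 class 3 semaphorins ran both ways, from -0.16 for Sema3e (exact permutation p = 0.0823) to 0.22 for Sema3d (exact permutation p = 0.0519), with Sema3a at -0.02. Among 13 membrane semaphorins 5 were above 0, with a median of -0.03, and 3 were above 0 under either rescaling of the arrays. Sema4f, a class 4 semaphorin of synapses, had 5.94, 6.07, 6.01, 6.18, 5.95 and 6.08 in TBI rats and 6.14, 6.18, 6.18, 6.08 and 6.26 in controls. In 4 TBI rats it was below all controls, and TBI 4 and TBI 6 lay within the control range. The difference was -0.13 (SE 0.05, exact permutation p = 0.0433, adjusted p = 0.632 in limma). It was -0.09 (SE 0.06, adjusted p = 0.4 in limma) without the 3 rats and no longer passed even before adjustment. The main ligands of Plxnb1 and Plxnb3 were not higher with them over all rats. Sema4d, the ligand of Plxnb1, differed by 0.02 (95% interval -0.07 to 0.12) and Sema5a, the ligand of Plxnb3, by -0.03 (-0.13 to 0.07). Without the 3 rats Sema4d differed by 0.01 (-0.11 to 0.13) and Sema5a by -0.09 (-0.18 to -0.003). With array weights the differences were 0.02 (SE 0.04) for Sema4d and -0.08 (SE 0.03) for Sema5a. In both fits Sema5a was thus further below 0, opposite in sign to Plxnb3. For Plxnb2 no single ligand was singled out. Over all rats the class 4 semaphorins ran from -0.13 for Sema4f to 0.05 for Sema4b, with Sema4c at 0.00.

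Of the 4 Robo receptors, 2 were lower in TBI rats before adjustment and 3 had negative differences. Robo3, a divergent Robo known for letting commissural axons cross the midline, showed the widest difference of the 71 genes. Its log2 signal was 5.74, 6.21, 6.20, 5.89, 5.95 and 5.70 in TBI rats and 6.71, 6.07, 6.44, 6.47 and 6.36 in controls. In 4 TBI rats it was below all controls, and TBI 2 and TBI 3 were above control 2 only. The difference was -0.46 (SE 0.12, exact permutation p = 0.013, limma p = 0.0025, adjusted p = 0.274). Without the 3 rats it was -0.56 (SE 0.11, adjusted p = 0.0412 in limma) and the groups did not overlap.

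Robo2, a Slit receptor of hippocampal neurons, had 8.54, 8.40, 8.51, 8.27, 8.31 and 8.25 in TBI rats and 8.44, 8.52, 8.52, 8.51 and 8.56 in controls. TBI 1 and TBI 3 matched the controls and the other 4 TBI rats were below them all. The difference was -0.13 (SE 0.06, exact permutation p = 0.0606, adjusted p = 0.714 in limma), and -0.20 (SE 0.04, adjusted p = 0.0618 in limma) without the 3 rats. Robo1, the related Slit receptor, differed by a similar -0.14 (SE 0.08), but TBI 3 had the highest value of all rats, 7.78, and TBI 1 the lowest, 7.26, and the exact permutation p was 0.152. Robo1 stayed at -0.14 (SE 0.05, adjusted p = 0.182 in limma) without the 3 rats. Robo4, a receptor of endothelial cells, differed by 0.03. Among the Slit ligands, Slit1 differed by 0.02 and Slit3 by -0.02. Slit2 differed by -0.14 (SE 0.12), from 6.75 to 7.45 with a median of 7.09 in TBI rats and at 6.92, 7.37, 7.25, 7.34 and 7.27 in controls, so that the groups overlapped widely. Its difference was -0.07 without TBI 4, -0.21 without TBI 3 or without control 1, and -0.23 (SE 0.11, adjusted p = 0.273 in limma) without the 3 rats.

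**Figure D3:**
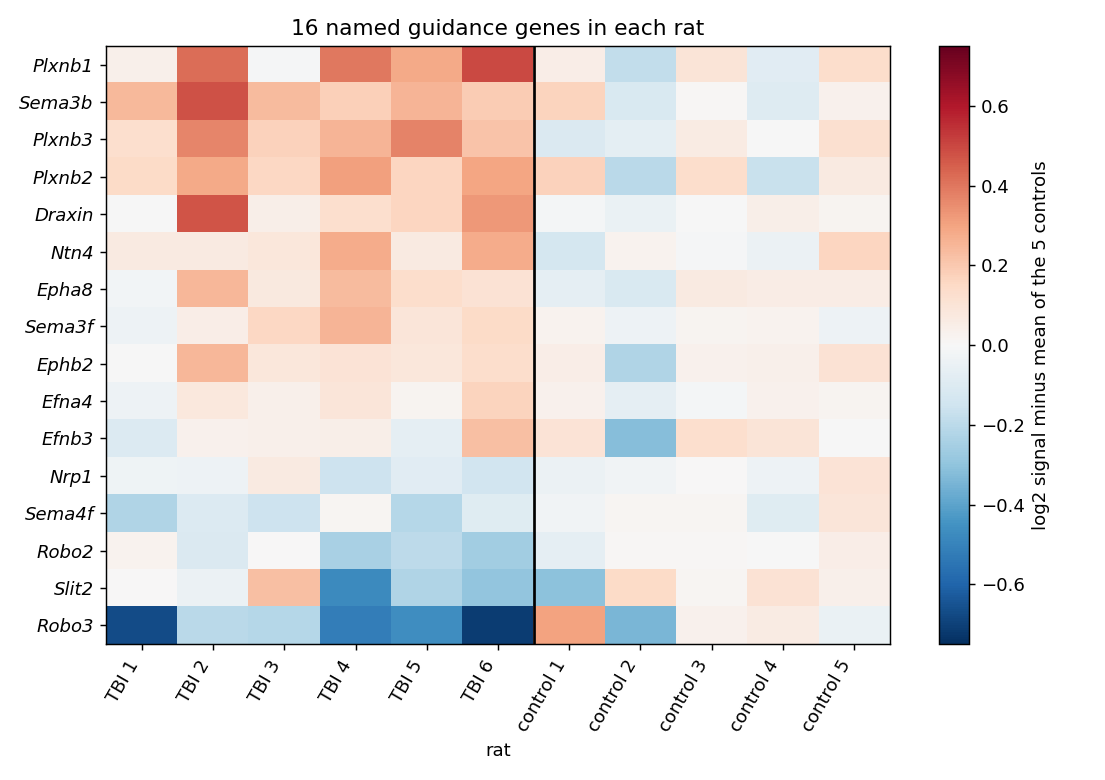
Log2 signal of 16 guidance genes in each rat minus the mean of the 5 controls, TBI rats left of the line and controls right of it, genes in order of the group difference. The B-type plexins and Sema3b are red across most TBI rats and Robo3 is blue across all 6.

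In the netrin system, 5 of 6 netrins and netrin-G genes were above 0, with a median of 0.04, and 4 of 6 were under either rescaling of the arrays. Ntn4, a laminin-related netrin of basement membranes, had 4.45, 4.45, 4.47, 4.66, 4.45 and 4.66 in TBI rats and 4.25, 4.41, 4.37, 4.34 and 4.54 in controls. Control 5 lay within the TBI range and the other controls below it. The difference was 0.14 (SE 0.06, exact permutation p = 0.0606, adjusted p = 0.716 in limma), and 0.18 (SE 0.07, adjusted p = 0.221) without the 3 rats. Draxin, a secreted protein that binds Dcc and netrins and repels commissural axons, had 4.41, 4.88, 4.46, 4.54, 4.57 and 4.74 in TBI rats and 4.39, 4.36, 4.41, 4.46 and 4.43 in controls. The controls were tight, 4 TBI rats were above them, and TBI 1 and TBI 3 were not. The difference was 0.19 (SE 0.08, exact permutation p = 0.0303, adjusted p = 0.651 in limma). Among the remaining 4 and 4 rats Draxin differed by 0.26 (SE 0.07, adjusted p = 0.0921 in limma) and the groups did not overlap.

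No receptor of the netrin system reached an unadjusted p of 0.05 with all rats. Dcc, the attractive receptor, differed by -0.05, and Unc5c by -0.02. Unc5b, a repulsive receptor also known from vessels, had the largest difference of them at 0.24, but its SE was 0.12 and its groups overlapped (exact permutation p = 0.121). Its difference was 0.29 (SE 0.07, adjusted p = 0.0752 in limma) without the 3 rats and the groups did not overlap.

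Ephrins and Eph receptors held 20 of the genes and gave 1 value past an unadjusted p of 0.05, beside 6.82% of all probe sets. Epha8 had 8.16, 8.43, 8.25, 8.41, 8.31 and 8.29 in TBI rats and 8.11, 8.06, 8.24, 8.23 and 8.23 in controls. It was above all controls in 5 TBI rats, and TBI 1 lay among the controls. The difference was 0.13 (SE 0.06, exact permutation p = 0.0606, adjusted p = 0.686 in limma), and 0.15 (SE 0.05, adjusted p = 0.129) without the 3 rats. All 4 ephrin-A genes were above 0 on the deposited scale, by 0.02 to 0.09, with Efna4 at 0.06 (SE 0.04), or 0.04 without TBI 6. All 3 ephrin-B genes lay between 0.01 and 0.03, but after a second quantile normalization 3 of 4 ephrin-A and 2 of 3 ephrin-B genes were above 0, and 2 of 3 ephrin-B genes with median-centred arrays. Ephb2, a receptor of dendritic spines, differed by 0.11 (SE 0.06, exact permutation p = 0.13), and control 2 had by far its lowest value. Leaving out control 2 brought the difference to 0.05.

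Several EphA receptors had values in the 3 rats that stand apart which differed from those of the other rats. This is not particular to them, since the component that set these rats apart was computed over all tested probe sets. Sema3c, for example, was at 6.54 in TBI 1, 6.65 in TBI 3 and 6.45 in control 2, against medians of 6.20 in TBI rats and 6.31 in controls. In Epha6, control 2 (9.05) lay within the range of the other controls. The genes described next were singled out after their values were seen. Epha4, the EphA receptor through which astrocytic ephrin-A3 shapes hippocampal spines, was at 9.49 in TBI 1 and 9.39 in TBI 3, against 9.41 in control 2, while the other TBI rats lay between 8.80 and 8.98 and the other controls between 9.09 and 9.21. Over all rats its difference was -0.10 (SE 0.13, exact permutation p = 0.472). Among the remaining 4 and 4 rats it was -0.23 (SE 0.05, adjusted p = 0.0569 in limma), and those groups did not overlap. Epha5 (-0.21), Epha6 (-0.23) and Epha7 (-0.14) ran the same way without the 3 rats, at adjusted p of 0.117, 0.0643 and 0.145 in limma, against -0.12, -0.14 and -0.07 with all rats. Of the other EphA receptors, Epha3 (-0.07) and Epha10 (-0.02) were below 0 without the 3 rats, and Epha1 (0.06), Epha2 (0.06) and Epha8 (0.15) were above 0. None of these EphA receptors passed the adjusted test in either fit.

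**Figure D4:**
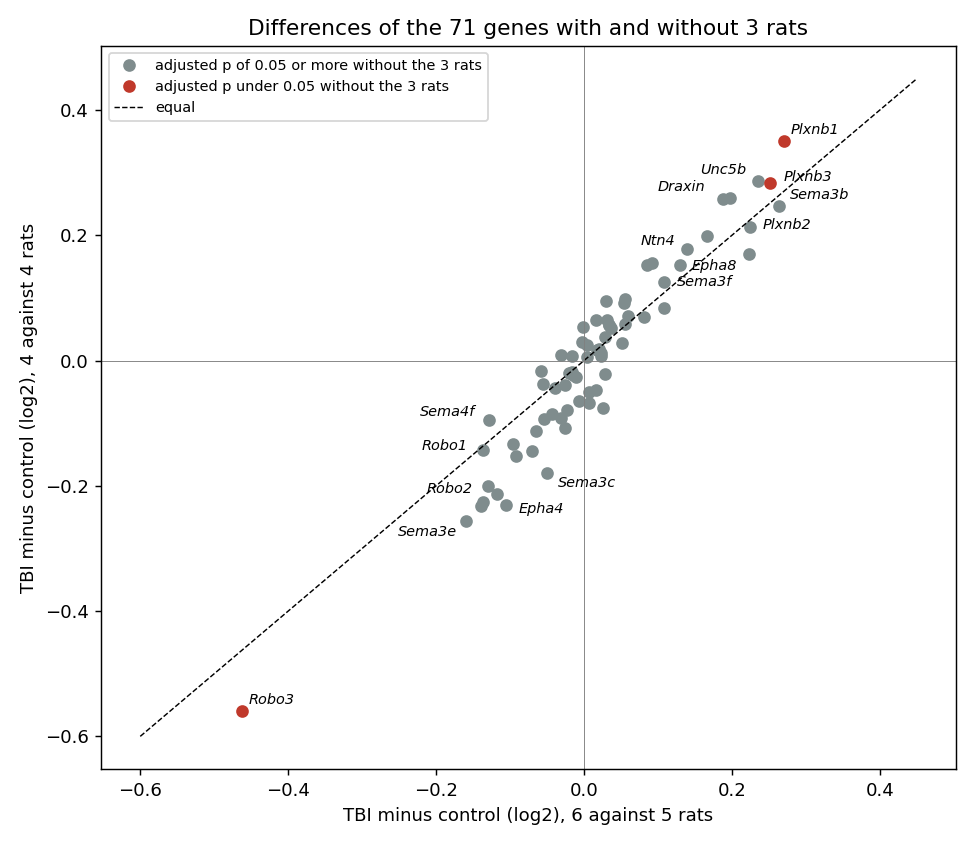
Each point is 1 of the 71 genes: its TBI minus control difference in log2 signal with 6 against 5 rats (horizontal) and with 4 against 4 rats, without TBI 1, TBI 3 and control 2 (vertical). Points in red (Plxnb1, Plxnb3 and Robo3) had an adjusted p under 0.05 without these rats, and most other points lie close to the line of equal values.

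No gene of the wider pathway lists passed the adjusted test. Of 31 further cues and coreceptors, 28 were measured and 0 were higher and 1 was lower at an unadjusted p under 0.05, with a median of -0.0047. That gene was Lrrc4c, the netrin-G1 ligand of synapses, at -0.20 (SE 0.08, adjusted p = 0.653 in limma). Of 45 intracellular effectors, 44 were measured, 2 were higher and 0 lower at an unadjusted p under 0.05 (4.55%, against 6.82% of all probe sets), and the median was -0.01. For neither list is the share in both directions larger than that of all probe sets, so nothing is read from either. Farp1, which in cell studies acts downstream of plexins and synaptic adhesion molecules, was at 7.45 ± 0.10 in TBI rats and 7.25 ± 0.09 in controls (SD), a difference of 0.20 (SE 0.06, adjusted p = 0.352 in limma). Arhgef12, which binds B-type plexins directly, averaged 8.52 ± 0.06 in TBI rats and 8.43 ± 0.04 in controls, a difference of 0.10 (SE 0.04, adjusted p = 0.644 in limma).

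Marker genes of several cell types differed between the same groups, and their part in the guidance results was not tested. Of 10 interneuron markers, 5 were lower at an unadjusted p under 0.05 (Pvalb, Sst, Npy, Reln and Lhx6), against 1.87% of all probe sets. Positive differences were found in 2 of the 10, and Pvalb fell by 0.60 on the log2 scale (adjusted p = 0.00568 in limma). The mean level of the interneuron list was 6.51 to 6.78 in TBI rats and 6.83 to 6.91 in controls. Of 9 measured astrocyte markers 3 were higher before adjustment (Gfap, S100b and Aqp4) and 4 had negative differences, with the list at 9.30 to 9.41 in TBI rats and 9.10 to 9.39 in controls, and Gfap rose by 0.83 (adjusted p = 1.43e-05 in limma). All 8 measured endothelial markers and all 8 measured mural markers were above 0, 3 of each list at an unadjusted p under 0.05. Of all probe sets 57.2% were above 0 and 4.96% were higher at that threshold. The endothelial list was at 6.14 to 6.23 in TBI rats and 5.98 to 6.21 in controls, and the mural list at 6.44 to 6.63 in TBI rats and 6.31 to 6.51 in controls. For the endothelial list the highest TBI value was that of TBI 1 and the highest control value that of control 2. None of the 9 measured oligodendrocyte markers passed even before adjustment, and that list was at 7.83 to 8.28 in TBI rats and 7.89 to 8.14 in controls. Granule cell markers were also level (7.16 to 7.41 in TBI rats and 7.25 to 7.34 in controls, 0 of 10 past an unadjusted p of 0.05). Microglial markers lay at 6.46 to 6.81 in TBI rats and 6.26 to 6.81 in controls, with 7 of 9 above 0. At that threshold 0 of these 9 were higher and 1 was lower. Of 5 measured mossy cell markers 3 were below 0 and 1 was lower at it, and of 9 fibroblast markers 8 were above 0 and 1 was higher.

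Between rats of 1 group the guidance genes varied about as much as other genes. The median within-group SD was 0.11 for the 71 genes and 0.10 for all probe sets, from 0.03 in Slit3 to 0.24 in Epha4. The genes whose values followed Plxnb3 most closely over the 11 rats, with group means removed, were Entrep1 (r = 0.95), Cables2 (r = 0.94) and Mcc (r = 0.92), picked as the highest of all 17905 probe sets.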

How the data were processed

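The deposited values were log2 expression signals that the authors had made by background correction, quantile normalization and summary per probe set with RMA (oligo 1.30.0 in the submitters' processing notes). After the study's methods, the antigenomic background served as a floor for all signals, and a probe set was dropped when more than 5 arrays did not exceed this floor. The floor was read here as 3.06, the lowest value of the study's own processed table of the same arrays. Of the 18644 probe sets with 1 gene symbol, 739 were removed, and 487 values of the rest were raised. TBI (6 rats) and control (5 rats) were compared by linear models (R 4.3.3; lmFit, then eBayes, of limma 3.58.1; no covariates; Benjamini-Hochberg over 17905 probe sets), tested on simulated data, beside exact two-sided permutation tests over all 462 splits. Rats were not paired, and the number of arrays limits precision. Alternatives were the floor and filter, array scaling, variance prior, the one-way analysis of variance of the methods, array weights, a replicate block, annotation, probe set choice and leaving rats out. Genes named were those at an unadjusted p under 0.05, the lowest p of each family, up to 4 of each pathway list and up to 3 most like Plxnb3. The genes, pathway lists and marker lists were chosen with earlier results of these data known. The annotation matched 70 of the 71 genes to RefSeq. Promoter sequences came from RefSeq (GRCr8), while the arrays' build is not given in the sources used here. Figures were drawn with matplotlib.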

Additional observations from a re-analysis of the deposited data

Results flagged for a closer look

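Of the 32 groups of rats examined for the 16 named guidance genes, 3 held a rat whose value stood apart from the rest of its group by Dixon's test at the 95% level, where chance gives about 1 in 20. In Sema3b, TBI 2 was at 5.92, and the next TBI rat was at 5.70 and the lowest at 5.62. In Slit2, control 1 was at 6.92, below the next control at 7.25. In Ephb2, control 2 was at 6.69, below the next control at 6.95.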

How the results depend on the processing

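The count of guidance genes at an adjusted p under 0.05 was 0 higher and 0 lower in every setting and after leaving out any 1 rat (0 to 0), except with array weights (2 higher: Plxnb3 at adjusted p = 0.0139 and Sema3b at 0.0253; 2 lower: Robo3 at 0.0154 and Robo2 at 0.0423) and without the 3 rats that stand apart (2 higher, 1 lower). At an unadjusted p under 0.05 the counts were 8 higher and 3 lower. A mean signal of at least 5, which kept 60 of the 71 genes, gave 5 higher (where 596 of 11802 probe sets were higher). Of the 8, that filter removed Draxin and Ntn4, and Sema3f moved to a limma p of 0.0562. Efna4, also removed, was not among the 8. The counts became 5 and 6 with median-centred arrays, and 4 higher after a second quantile normalization. With array weights they were 12 and 12 (where 1866 of all probe sets were higher and 1371 lower). They were 13 and 13 without the 3 rats, and 4 to 12 higher and 1 to 6 lower when rats were left out in turn. The median difference ranged from -0.00165 to 0.0239 when rats were left out. The cause of these changes was not tested. The replicate block gave 3 higher and 1 lower (where 515 of all probe sets were higher and 147 lower). The labels' replicate numbers do not pair the rats: same-numbered rats correlated at -0.65 to 0.11 in their deviations from the group means, and none correlated best with its own number. Each of the 16 named genes kept its direction in every setting, except Efnb3, which was below 0 with array weights (-0.0535), the replicate block (-0.0107), without the 3 rats (-0.0208), and without TBI 6 (-0.0107) or control 2 (-0.0517), and ran from -0.0517 to 0.06 when rats were left out. Median-centring moved the median of all probe sets to -0.01. The number of rats limits what these arrays resolve for differences near 0.1.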

Other observations

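Of the probe sets that the rule left out, the second probe set of Sema4c was at -0.03 (SE 0.07, exact permutation p = 0.723), beside 0.00 for the brighter probe set. A probe set shared by Mrpl43 and Sema4g differed by 0.09 (adjusted p = 0.849 in limma), beside -0.03 for the probe set of Sema4g alone, and a probe set shared by Ntn1 and Mfap1al1 differed by 0.08 (adjusted p = 0.934 in limma), beside 0.03 for Ntn1 alone. Without Unc50 and Unc5cl, 37 of 69 genes were above 0, and the counts of 8 higher and 3 lower at an unadjusted p under 0.05 stayed the same.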
